A study of Rattus norvegicus with 59 samples.

Results

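A set of 7 genes that work in T cells and other lymphocytes was taken by name from a lung expression table of 2887 complete entries, and 6 of them are described, Map4k1, Tagap, Zc3h12d, Lat, Coro1a and Itgal. The lungs came from male Fischer rats (F344/DuCrl, bought at 3 months of age) that breathed air or crystalline silica, the mineral dust of silicosis. Silica was given by whole-body inhalation at 15 mg/m3, on 5 days of 6 h each. Lungs were taken at 6 times, the first 1 month and the last 18 months after exposure, with 3, 6, 9 and 12 months between. Each treatment and time had 5 rats, except 4 air rats at 9 months, which makes 59 libraries of 1 rat each, 30 from silica and 29 from air, and each time had its own air group. Levels are in FPKM, fragments per kilobase of transcript scaled to the mapped fragments of the library. The comparisons ask how the genes differed between silica and air lungs collected at one time, if the size of this difference shifted over the months, and how levels moved with time in each treatment.

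When a T cell meets its antigen, kinases at the T cell receptor phosphorylate the adaptor LAT, and LAT gathers the enzymes that start calcium, Ras and NF-kB signalling. MAP4K1, also called HPK1, is a kinase of blood cells that dampens this signal. TAGAP is a GTPase-activating protein named for its induction in activated T cells, and ZC3H12D is a zinc finger protein of the Regnase family, whose members degrade inflammatory mRNAs. CORO1A binds actin in leukocytes and is needed for the survival of naive T cells. ITGAL is the alpha L chain of LFA-1, the integrin by which lymphocytes and other leukocytes hold on to ICAM-1. In silicosis, lymphocytes gather with macrophages in lung nodules and draining lymph nodes. RNA of a piece of whole lung was measured, so a difference in the number of cells of a type and a difference in RNA per cell cannot be told apart.

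The group's label could be checked only in part. Of 16 defining T cell markers listed, only Themis, a regulator of T cell receptor signalling, had an entry. Its level was 0.163 to 0.925 FPKM (median 0.463) in air and 0.128 to 0.718 (median 0.451) in silica libraries. Themis was too low to be tested, and the other markers were not analysed here. A gene was tested where it reached 1 FPKM in at least 4 libraries, as 1278 genes did, all 6 among them. Map4k1, Tagap, Lat, Coro1a and Itgal were at 1 FPKM or more in every library, and Zc3h12d in 40 of 59. Sequencing depth was only estimated, in relative terms, from the FPKM of 261 entries above 0 in few libraries, taken as single fragments. The estimate spanned 5.24-fold. A total of 3 libraries stood apart. In air replicate 3 of 9 months and silica replicate 5 of 3 months a single entry, LOC102553223, held 25818 of 38613 and 17114 of 31740 FPKM, while the other 57 libraries summed to 12818 to 17600 FPKM over all entries and held at most 2618 in it. The third was replicate 3 of the silica group at 12 months. Its 15 neutrophil and macrophage markers summed to 114 FPKM, within the 111 to 159 of the air lungs of that time, where the other 4 silica lungs held 228 to 313. Calls at these 3 times are given with and without the library concerned.

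Promoters, from 250 bases before to 50 after the gene start, were matched in RefSeq (rat build GRCr8) for 5 of the 6 genes, all but Itgal. They are shown for Tagap, which had the largest silica rise, for Coro1a, the most abundant of the genes that rose, and for Lat, the receptor adaptor that was not called. They lie at chr1:49583731-49584030, chr1:190731054-190731353 and chr1:190372087-190372386, on the minus strand, and are written 5′ to 3′. Capitals mark matches, on either strand, to the motifs described after them.
Tagap: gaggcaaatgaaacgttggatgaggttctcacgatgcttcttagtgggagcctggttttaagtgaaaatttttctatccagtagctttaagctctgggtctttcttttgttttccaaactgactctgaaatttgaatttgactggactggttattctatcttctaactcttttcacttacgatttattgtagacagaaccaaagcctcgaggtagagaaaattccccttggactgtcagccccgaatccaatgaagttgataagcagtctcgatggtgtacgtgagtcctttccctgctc
Coro1a: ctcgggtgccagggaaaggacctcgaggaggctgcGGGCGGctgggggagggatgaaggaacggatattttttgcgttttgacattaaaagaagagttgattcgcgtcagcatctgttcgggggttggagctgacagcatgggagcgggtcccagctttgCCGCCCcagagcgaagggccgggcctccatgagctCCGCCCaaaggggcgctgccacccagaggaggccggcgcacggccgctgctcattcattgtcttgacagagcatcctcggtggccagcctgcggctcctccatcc
Lat: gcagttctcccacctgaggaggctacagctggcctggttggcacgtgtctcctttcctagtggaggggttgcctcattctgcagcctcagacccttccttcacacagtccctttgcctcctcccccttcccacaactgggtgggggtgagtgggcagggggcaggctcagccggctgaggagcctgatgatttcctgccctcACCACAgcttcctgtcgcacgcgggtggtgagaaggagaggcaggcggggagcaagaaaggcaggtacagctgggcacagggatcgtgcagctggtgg
The GC box GGGCGG was found in Coro1a and Zc3h12d, and in 33.1% of all 33469 promoters. The RUNX type motif TGTGGT was found in Lat, and in 17.3% of promoters. Zc3h12d held the ETS type motif GGAAGT, present in 22.6% of promoters. None of the 5 held the GATA type motif AGATAA (11.6% of promoters). None held the TATA box TATAAA either (14.2%). Tagap and Map4k1 had no match to any of these letters. The Tagap promoter was 41.7% G and C, against 63.0% in Coro1a, 63.0% in Lat and a median of 51.7% over all promoters.

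Levels per transcript length ran from a median of 37.3 FPKM for Coro1a to 1.14 for Zc3h12d. Coro1a stood above Itgal (median 15.6), and Itgal above Lat, in all 59 libraries. Lat (3.53) and Map4k1 (3.50) had no fixed order, with Lat higher in 30 of 59. Map4k1 exceeded Tagap (2.76) in 44 of 59 libraries, and Tagap exceeded Zc3h12d in all 59. For each gene the highest of the 12 group means was 1.45 (Coro1a) to 2.19 times (Tagap) the lowest. Neighbouring groups in the order of means differed by more than the larger of their SDs in at most 1 of 11 steps for each gene.

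**Figure D1:**
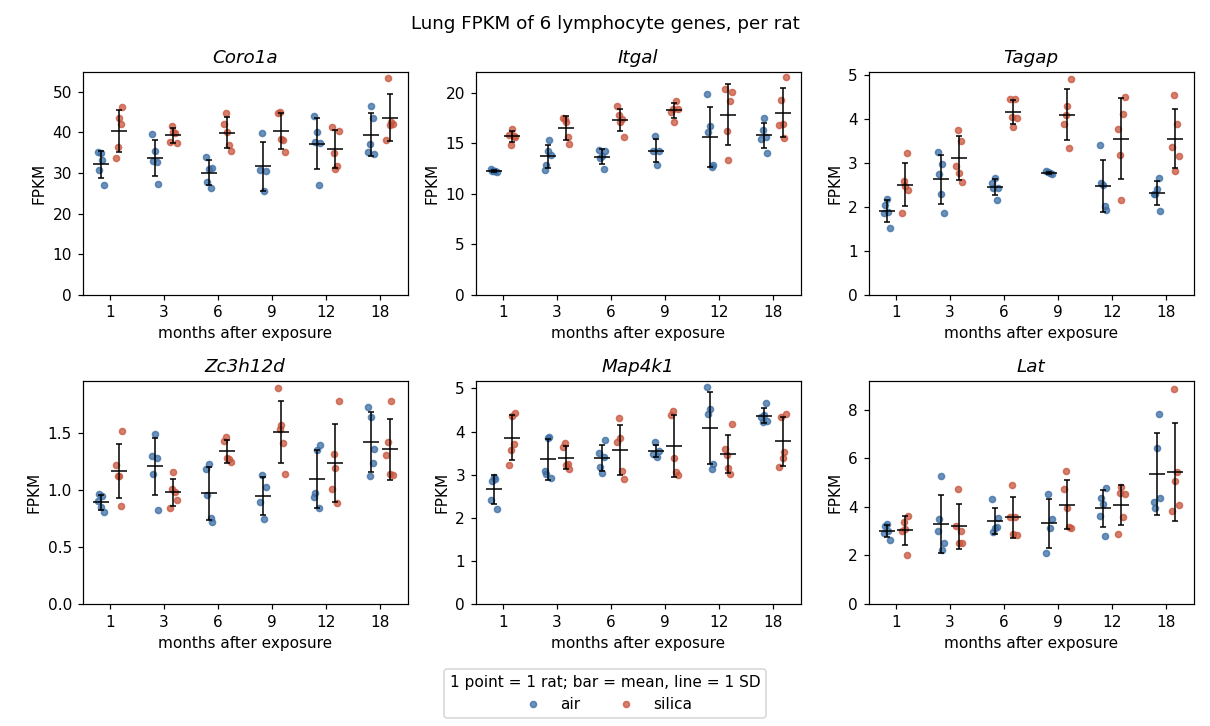
FPKM (linear axis from 0) of the 6 genes in every rat by months after exposure, air in blue and silica in red, with the mean (bar) and 1 SD (line) of each group. Tagap has higher silica means at every time, such as 4.15 against 2.44 in air at 6 months, while Lat has higher means at 18 months than at 1 month in both treatments.

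Averaged over the 6 times, Tagap, Itgal, Coro1a and Zc3h12d rose in silica lungs, 4 of the 6, and none fell. Among all tested genes 57.6% were called (limma, adjusted p under 0.05), 37.5% higher and 20.1% lower. The 4 of 6 is near the share called in either direction and above the share called higher. Whether it exceeds the latter was not tested, in 6 genes chosen with earlier results known. The median log2 change of the 6 was 0.19, beside 0.032 for all tested genes. Of all genes called here 65.1% were higher, and 44.1% after centring each library on its median or 41.1% after quantile normalization. At single times that share was 61.6 to 95.6% as deposited, 47.6 to 58.9% centred and 43.4 to 61.0% quantile normalized.

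Tagap rose 1.35-fold, from a mean of 2.42 FPKM in air to 3.49 in silica (0.44 ± 0.054, limma adjusted p = 1.19e-09). Changes are log2 values ± SE on the log2(FPKM + 0.5) scale, which understates low genes. Itgal rose 1.21-fold, from 14.2 to 17.3 FPKM (0.27 ± 0.037, limma adjusted p = 8.49e-09). Coro1a rose from 34.0 to 39.9 FPKM (0.24 ± 0.047, limma adjusted p = 2.55e-05), a call lost after quantile normalization (0.090, adjusted p = 0.0741). Zc3h12d rose from 1.09 to 1.27 FPKM (0.15 ± 0.050, limma adjusted p = 0.00741), a call lost after median centring (0.093, adjusted p = 0.107). The same 4 genes were called without any 1 of the 3 libraries that stood apart.

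Lat and Map4k1 were not called in this average. The change of Lat was 0.057 ± 0.081 (95% interval -0.11 to 0.22, limma adjusted p = 0.574) and that of Map4k1 0.031 ± 0.044 (-0.059 to 0.12, 0.580), and both turned negative after median centring and after quantile normalization.

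The silica changes of the 6 genes were compared with one another by permuting treatment within each time (100000 resamples, 59 libraries), a comparison added after the values were seen. In 9 of 15 pairs they differed at an adjusted p under 0.05, with adjustment over the 21 pairs of the whole set. Tagap rose more than each of the other 5, by 0.16 (Itgal, permutation adjusted p = 0.00491) to 0.41 (Map4k1, 7e-05, from the smallest p that these permutations can give, 1e-05). The change of Itgal exceeded that of Lat by 0.22 (permutation adjusted p = 0.0247) and that of Map4k1 by 0.24 (7e-05). Coro1a exceeded Lat by 0.18 (permutation adjusted p = 0.0247) and Map4k1 by 0.20 (2.10e-04). No difference was detected between Lat and Map4k1 (0.026, permutation adjusted p = 0.743), Coro1a and Itgal (0.039, 0.378) or Zc3h12d and Lat (0.098, 0.220).

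**Figure D2:**
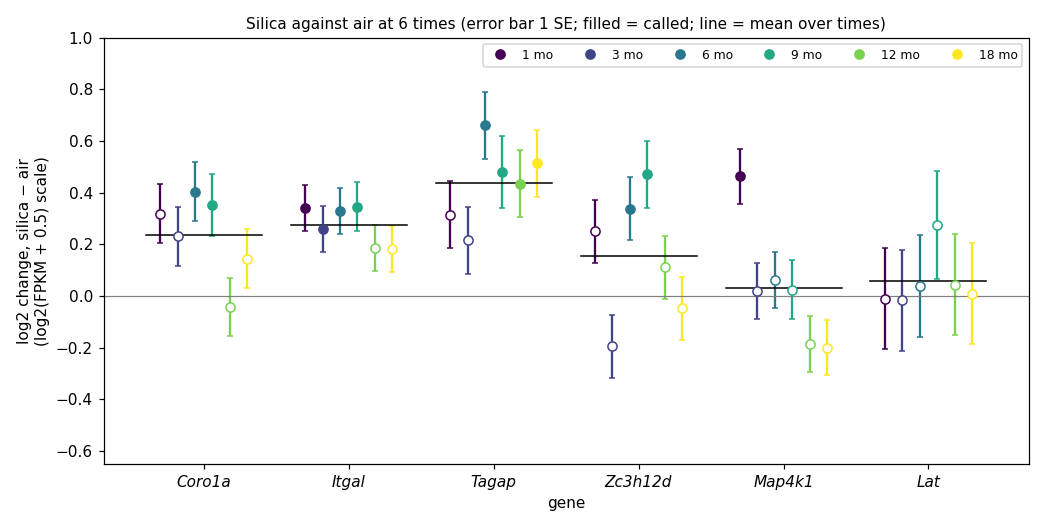
Log2 change of silica against air, on the log2(FPKM + 0.5) scale, for each of the 6 genes at 6 times (colours), with 1 SE, filled where the limma adjusted p is under 0.05, and a black line at the mean over times. Map4k1 goes from 0.46 at 1 month to -0.20 at 18 months, and no point of Lat is filled.

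At 1 month Map4k1 and Itgal were called higher, 2 of the 6, where 8.84% of all tested genes were called and 8.45% were higher. Itgal, the LFA-1 chain, was at 12.1, 12.2, 12.3, 12.3 and 12.4 FPKM in the 5 air lungs and at 14.8, 15.6, 15.7, 15.8 and 16.4 in the 5 silica lungs. The treatments did not overlap, and the air lungs were tightly grouped. The change was 0.34 ± 0.089, limma adjusted p = 0.00927, and the adjusted p was 0.0565 after quantile normalization.

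Map4k1, the kinase that dampens receptor signals, was at 2.19, 2.41, 2.85, 2.90 and 2.94 FPKM in air at 1 month. Its silica lungs held 3.22, 3.58, 3.70, 4.37 and 4.43 FPKM, all above the air lungs, a separation seen in 8.06% of all tested genes. Map4k1 rose 1.38-fold (0.46 ± 0.11, limma adjusted p = 0.00390). Coro1a (0.32 ± 0.11, limma adjusted p = 0.0662), Tagap (0.32 ± 0.13, 0.127) and Zc3h12d (0.25 ± 0.12, 0.215) were not called at this time. Coro1a was called without silica replicate 1 of 1 month (0.0395) or air replicate 4 of 12 months (0.0453).

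At 3 months Itgal was the only one of the 6 called (0.26 ± 0.089, limma adjusted p = 0.0345), where 18.2% of all tested genes were called and 15.9% were higher. Its air lungs held 12.4, 12.9, 13.8, 14.2 and 15.3 FPKM and its silica lungs 14.9, 15.6, 17.1, 17.4 and 17.5. The lowest silica lung lay below the highest air lung, and none of the 6 separated fully, while 11% of tested genes did so with silica higher. Without silica replicate 5, which stood apart, Itgal changed by 0.30 (limma adjusted p = 0.0195) and was again the only gene of the 6 called. The call was lost when silica replicate 1, 2 or 3 or air replicate 1 or 2 was removed (0.0738 to 0.0859), without a filter on low values (0.0727), and after median centring (0.116) or quantile normalization (0.297). Map4k1 was at 3.35 ± 0.474 (SD, n = 5) FPKM in air and 3.39 ± 0.271 (SD, n = 5) in silica.

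At 6 months Tagap, Coro1a, Itgal and Zc3h12d were called higher, 4 of 6, where 27.6% of all tested genes were called and 21.2% were higher. For these 4 every silica lung lay above every air lung, as in 20.6% of tested genes. Tagap was at 2.15, 2.43, 2.43, 2.55 and 2.65 FPKM in air and 3.82, 4.02, 4.03, 4.44 and 4.45 in silica. This was its largest change over the 6 times, 1.58-fold (0.66 ± 0.13, limma adjusted p = 1.02e-04).

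Coro1a, the leukocyte actin regulator, held 26.2, 27.8, 30.9, 31.3 and 34.0 FPKM in air lungs and 35.4, 37.0, 40.2, 42.2 and 44.9 in silica lungs at 6 months (0.40 ± 0.11, limma adjusted p = 0.00538, 0.251 after quantile normalization). Itgal was at 13.6 ± 0.725 (SD, n = 5) FPKM in air and 17.3 ± 1.12 (SD, n = 5) in silica (0.33 ± 0.089, limma adjusted p = 0.00358, 0.0953 after quantile normalization). Both genes separated the treatments, by a smaller fold than Tagap. Zc3h12d, the Regnase family gene, was at 0.721, 0.756, 0.958, 1.19 and 1.23 FPKM in air and 1.24, 1.28, 1.28, 1.43 and 1.47 in silica (0.34 ± 0.12, limma adjusted p = 0.0323). Its call was lost when air replicate 2, 4 or 5 or silica replicate 1 or 2 was removed (0.0532 to 0.106), after median centring (0.0812) and without a filter (0.0660).

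At 9 months the same 4 genes were called higher, where 30.8% of all tested genes were called and 19.5% were higher. Zc3h12d had its largest change here, from 0.742, 0.894, 1.02 and 1.13 FPKM in the 4 air lungs to 1.14, 1.41, 1.53, 1.57 and 1.90 in the 5 silica lungs (0.47 ± 0.13, limma adjusted p = 0.00413). Tagap was at 2.75 to 2.80 FPKM in air and at 3.33, 3.87, 4.08, 4.29 and 4.90 in silica (0.48 ± 0.14, limma adjusted p = 0.00612). Itgal was at 12.9 to 15.7 FPKM in air and 17.1 to 19.1 in silica (0.35 ± 0.094, limma adjusted p = 0.00362). In these 3 every silica lung lay above every air lung, as in 16% of tested genes. Coro1a overlapped (0.35 ± 0.12, limma adjusted p = 0.0202), its unadjusted two-sided exact permutation p was 0.0556, and its call was lost without air replicate 3 or silica replicate 1 or 2 (0.0512 to 0.134), after quantile normalization (0.222) and when the 9-month libraries were fitted by themselves (0.0706). Air replicate 3, which stood apart, had the lowest Coro1a level of all 59 libraries, 25.4 FPKM, and without it the change of Coro1a was 0.26 (limma adjusted p = 0.134). Zc3h12d (0.40, limma adjusted p = 0.0292), Tagap (0.48, 0.0156) and Itgal (0.30, 0.0250) were called without it.

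At 12 months Tagap alone was called (0.43 ± 0.13, limma adjusted p = 0.0112), where 23.6% of all tested genes were called and 14.6% were higher. Its silica lungs held 2.16, 3.19, 3.78, 4.12 and 4.51 FPKM and its air lungs 1.92, 2.01, 2.49, 2.53 and 3.39. The treatments overlapped for all 6 genes, while in 1.64% of tested genes every silica lung lay above every air lung. The lowest Tagap value in silica came from replicate 3, the library of this time that stood apart. Without it Tagap changed by 0.58 (limma adjusted p = 2.52e-04), and 35.8% of tested genes were called. This library was set apart by markers that rose with silica, so leaving it out favours larger silica changes. Values without it, for any of the 6 genes, therefore add no support to a call.

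Itgal, at 13.3 FPKM in replicate 3 and 16.2 to 20.3 in the other 4 silica lungs of 12 months, was called without that library (0.28, limma adjusted p = 0.00694) and not with it (0.19 ± 0.089, 0.119). It was also called without air replicate 1 (0.0194). Coro1a changed by -0.043 with replicate 3 and 0.0065 without it. For Map4k1 these values were -0.19 and -0.16, for Zc3h12d 0.11 and 0.11, and for Lat 0.044 and -0.014, and these 4 genes were called neither way. Tagap missed the threshold without silica replicate 4 or 5 (0.0513 to 0.0626) and when the 12-month libraries were fitted by themselves (0.186), where 1 gene was called in all, and its unadjusted two-sided exact permutation p was 0.0714.

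At 18 months Tagap was again the only one of the 6 called, where 15.3% of all tested genes were called and 11.8% were higher. Air lungs held 1.91, 2.28, 2.30, 2.41 and 2.65 FPKM and silica lungs 2.81, 3.15, 3.35, 3.87 and 4.53 (0.51 ± 0.13, limma adjusted p = 0.00440). Every silica lung lay above every air lung, as in 9.23% of tested genes. Itgal (0.18 ± 0.089, limma adjusted p = 0.160) and Coro1a (0.15 ± 0.11, 0.423) overlapped. Map4k1 was at 4.23, 4.24, 4.33, 4.40 and 4.66 FPKM in air and 3.18, 3.39, 3.52, 4.34 and 4.42 in silica. Here the lower values were in silica, opposite to 1 month, and the change was not called (-0.20 ± 0.11, limma adjusted p = 0.213).

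Whether the silica effect itself changed with time was tested directly. Between 18 months and 1 month it differed for Map4k1, by -0.66 ± 0.15 (95% interval -0.97 to -0.36, limma adjusted p = 0.0432), 1 of the 6. Of all 1278 tested genes 2 passed (0.156%). Map4k1 was itself the only gene of these that was lower (0.0782%), so that share is no separate background. The call was lost in 21 of 59 fits without 1 library (0.0501 to 0.116). These removed any air library of 18 months, air replicate 1 or 5 or silica replicate 3, 4 or 5 of 1 month, or silica replicate 1, 3 or 4 of 18 months. The others removed silica replicate 4 of 3 months, air replicate 1 or 4 of 6 months, air replicate 1, 3 or 4 of 9 months, or silica replicate 1 or 2 of 12 months. Without a filter the adjusted p was 0.119. Over all 6 times, an F test in limma called none of the 6, against 1.33% of all tested genes. Map4k1 was closest (adjusted p = 0.0577), and it was called after quantile normalization (0.0425) and in 10 of 59 fits without 1 library (0.0306 to 0.0496). These removed silica replicate 1 of 1 month, 5 of 6 months, 1 or 2 of 9 months, 3 or 5 of 12 months or 2 or 5 of 18 months, or air replicate 4 or 5 of 12 months.

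With time most of the 6 genes moved in air lungs. From 1 to 18 months Lat, Map4k1, Zc3h12d and Itgal rose, 4 of 6, and none fell, where 21.8% of all tested genes were called, 17.4% higher and 4.46% lower. Of the called genes 79.6% were higher, against 42.5% after median centring and 48.5% after quantile normalization. Age and anything else that went with the time of collection cannot be told apart. The air group of 1 month had the lowest of the 12 group means for every gene of the 6 but Coro1a. The silica comparison at 1 month and the shift of the Map4k1 effect use this same air group, so these results are not independent. The 4 calls of a rise in air held in each of 59 fits without 1 library, after median centring and after quantile normalization.

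Lat, the adaptor, had the largest of these changes. Air lungs held 2.65, 2.91, 3.02, 3.19 and 3.28 FPKM at 1 month and 3.97, 4.20, 4.35, 6.44 and 7.82 at 18 months (1.62-fold, 0.70 ± 0.20, limma adjusted p = 0.00771). Silica lungs rose from 3.03 ± 0.608 (SD, n = 5) to 5.44 ± 2.01 (SD, n = 5) FPKM (0.71 ± 0.20, limma adjusted p = 0.00897), in a comparison added after the values were seen. In it Lat and Tagap were called, 2 of the 6, where 14.2% of all tested genes were, 10% higher and 4.23% lower. Replicate 2 of the silica group at 18 months was highest, at 8.84 FPKM, and without it the change was 0.54 (adjusted p = 0.0614).

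Map4k1 rose 1.55-fold in air, from 2.66 ± 0.339 (SD, n = 5) to 4.37 ± 0.172 (SD, n = 5) FPKM (0.63 ± 0.11, limma adjusted p = 2.80e-05). In silica lungs it was at 3.86 ± 0.523 (SD, n = 5) and 3.77 ± 0.569 (SD, n = 5) FPKM (-0.032 ± 0.11, limma adjusted p = 0.871). Zc3h12d (0.45 ± 0.12, limma adjusted p = 0.00563) and Itgal (0.35 ± 0.089, 0.00349) rose in air, and Coro1a (0.28 ± 0.11, 0.0637) and Tagap (0.23 ± 0.13, 0.213) were not called. Tagap was called in silica lungs (0.43 ± 0.13, limma adjusted p = 0.0193), a call lost without silica replicate 1 of 1 month or replicate 2 or 4 of 18 months (0.0531 to 0.0858).

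Over all 6 air groups 5 of the 6 genes varied, all but Tagap (limma F test, adjusted p = 0.0889), where 28.9% of all tested genes did. Map4k1 had the smallest adjusted p (2.24e-04). The count was 2 after median centring, 3 after quantile normalization, 3 without a filter and 2 to 6 without 1 library. Coro1a lost its call in 27 of 59 such fits.

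From rat to rat within a group the 6 genes formed an uneven pattern. Pearson r between deviations from the group means, over 59 libraries, ranged over the 15 pairs from 0.0059 to 0.67, with a median of 0.46, beside 0.060 for pairs of other tested genes. By permutation within groups, adjusted over the 21 pairs of the whole set, 10 passed by r and 9 by Spearman's rho. Map4k1 and Coro1a were closest (r = 0.67, rho = 0.66, permutation p = 1e-05 for both, the smallest possible, adjusted 2.10e-04). Without the 2 libraries farthest from the median of Map4k1, r was 0.62. Itgal varied with Map4k1 (r = 0.57), Coro1a (0.52) and Tagap (0.49), and Lat with Coro1a (0.52) and Zc3h12d (0.46). Itgal had r near 0 with Lat (0.038, rho 0.080, permutation p = 0.799 and 0.599) and Zc3h12d (0.0059). Each gene's mean r to the others described was set beside its r to single tested genes outside the set. It was above the 95th percentile of these for Map4k1 (0.47, percentile 0.34), Coro1a (0.54, 0.45) and barely Zc3h12d (0.260, 0.259). It was below for Tagap (0.31, 0.41), Lat (0.316, 0.319) and Itgal (0.32, 0.45). A mean of several r and a single r are unlike measures, so the percentile does not show whether a mean is unusual. The values of a library share its depth and its piece of lung.

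The tested genes most like the set, picked by their mean r to its 7 genes over 59 libraries and so only described, were Spn, the leukocyte sialomucin CD43 (mean r 0.49), Sept1, a septin (0.48), Gvinp1 (0.46), Il16, a cytokine precursor of T cells (0.45), Lilrb3l (0.41), Cd22, a B cell lectin (0.40), Prkcb, a kinase of B cell receptor signalling (0.38), and Gramd1a (0.37). Spn was closest to Map4k1 (0.73) and least close to Lat (0.31). In the mean over times Spn (-0.11, limma adjusted p = 0.0484), Gvinp1 (-0.12, 0.0121) and Il16 (-0.093, 0.0152) were lower in silica, and the other 5 were not called.

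**Figure D3:**
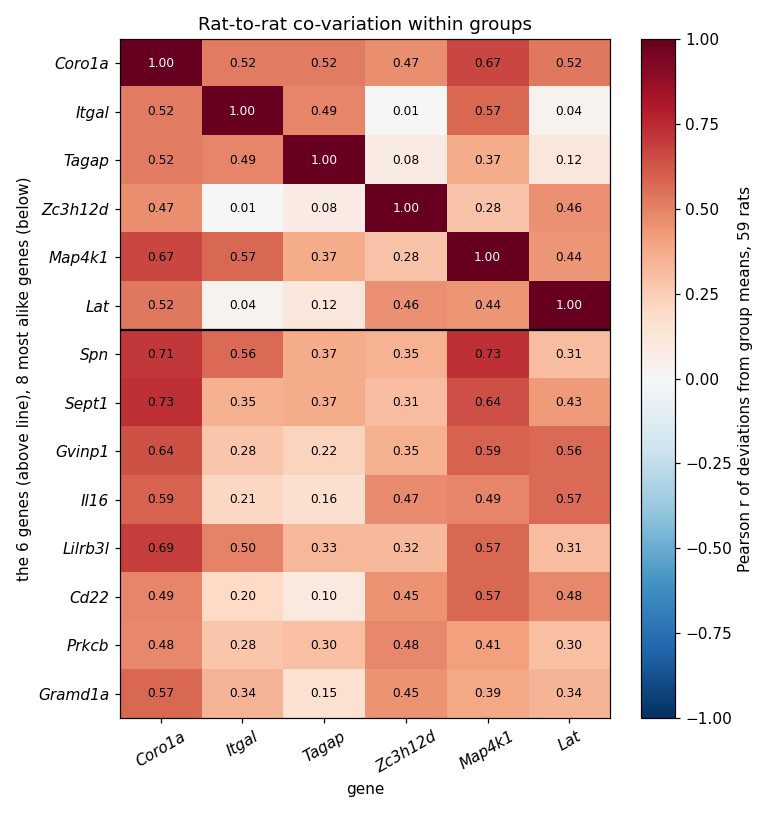
Pearson r across 59 rats of deviations from the group means of log2(FPKM + 0.5), for the 6 genes (above the line) and the 8 most alike genes (below it), on a colour scale from -1 to 1. The highest value among the 6 is Map4k1 with Coro1a at 0.67, and Itgal is near 0 with Lat and Zc3h12d.

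Other genes of the same pathways were described by lists. Of 38 T cell receptor pathway genes 9 were tested, 5 higher and 1 lower averaged over the times, with a median change of 0.082. The smallest p belonged to Pak1, a kinase downstream of Rac (0.34 ± 0.043, limma adjusted p = 1.81e-09), Nfkbib, an NF-kB inhibitor (0.27 ± 0.042, 5.31e-07), Mapk3, the kinase ERK1 (0.11 ± 0.032, 0.00222), and the kinase gene Akt2 (0.082 ± 0.025, 0.00471), which many cell types express. Of 27 other lymphocyte genes 12 were tested, 2 higher and 4 lower (median -0.0076). Ifngr1, an interferon gamma receptor chain, rose (0.22 ± 0.036, limma adjusted p = 9.65e-07), and Il4r, the interleukin 4 receptor, fell (-0.21 ± 0.046, 9.57e-05), as did Il16 and Spn.

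Of 19 genes listed for LFA-1 and actin machinery 7 were tested, 5 higher and 2 lower (median 0.34). Integrin alpha chains that share the beta-2 partner of Itgal moved in both directions. Itgax (0.73 ± 0.055, limma adjusted p = 2.32e-16) and Itgam (0.93 ± 0.084, 1.39e-13) rose, beside 0.27 for Itgal, and Itgad fell (-0.22 ± 0.061, 0.00227). Whether they differed from Itgal was not tested. Vasp, an actin regulator, rose (0.37 ± 0.033, limma adjusted p = 4.15e-14).

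Markers of other leukocytes moved in both directions beside the rises of Tagap, Itgal and Coro1a. Of 18 neutrophil and macrophage markers 14 were tested, 13 rose and none fell (median 0.75). The 4 with the smallest p were Cd177 (3.99-fold), a neutrophil surface protein, Lilrb4 (1.12 ± 0.078), Itgax (0.73 ± 0.055) and Plaur (0.93 ± 0.070), the urokinase receptor. The 15 markers of this list with an entry summed to 109 to 159 FPKM in air and 114 to 313 in silica libraries, or at least 177 in silica without replicate 3 of 12 months. Of 10 NK and cytotoxic cell markers 3 were tested. Nkg7, a granule protein of cytotoxic cells, fell by 0.38 ± 0.060 (limma adjusted p = 3.36e-07) and Ncr1, an NK cell receptor, by 0.27 ± 0.071 (0.00123), while Hcst, the adaptor DAP10, rose by 0.23 ± 0.085 (0.0195). These 3 summed to 12.7 to 35.9 FPKM in air and 13.4 to 26.1 in silica.

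Of 11 B cell markers 2 were tested. Spib, a transcription factor of B cells and plasmacytoid dendritic cells, fell by 0.25 ± 0.092 (limma adjusted p = 0.0195), and Cd22 (-0.12 ± 0.063) was not called. The 3 B cell markers with an entry summed to 2.61 to 5.47 FPKM in air and 2.0003 to 5.67 in silica. None of the markers of these lists with an entry was at 0 in all libraries. The part of other leukocytes in the values of the 6 genes was not tested.

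**Figure D4:**
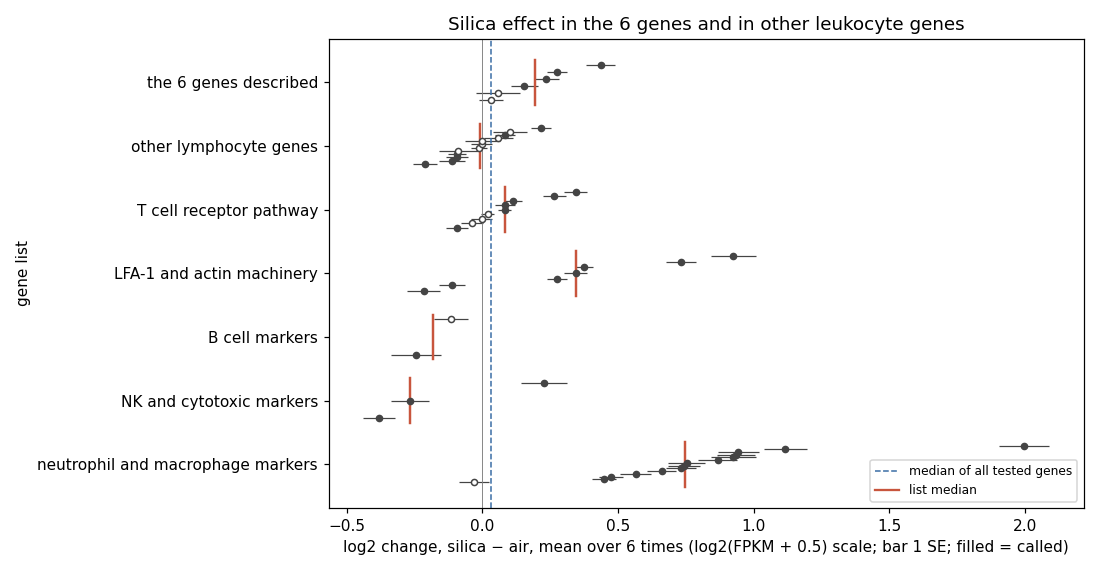
Log2 change of silica against air, mean over 6 times, on the log2(FPKM + 0.5) scale with 1 SE, for each tested gene of the lists, filled where the limma adjusted p is under 0.05, with list medians in red and the median of all tested genes (0.032) dashed. The 6 genes have a median of 0.19, between 0.75 for neutrophil and macrophage markers and -0.0076 for other lymphocyte genes.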

How the data were processed

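RNA of a lung piece from 59 rats was sequenced from stranded, ribosome-depleted libraries, per the labels' protocols. The submitters' processing notes name Bowtie2 2.2.9, Cufflinks 2.1.1, TopHat2 2.0.9, Trimmomatic 0.35 and bcl2fastq 2.19 without roles. The build, annotation and strand setting are not given in the sources used here. Values deposited by the authors are FPKM, 1 column per rat, and 0 columns were left unmatched. One of 2888 entries was incomplete (31 of 59 values) and left out. Of 2061 names known to RefSeq (GRCr8), 99.3% lay on chromosome 1, and most genes elsewhere were not analysed here.

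Genes with at least 1 FPKM in 4 or more libraries (1278, 44.3%) were fitted as log2(FPKM + 0.5) with limma 3.58.1 (R 4.3.3), intensity trend, 12 groups and no covariate (47 residual degrees of freedom). Adjusted p is Benjamini-Hochberg over all tested genes, threshold 0.05. The labels give no batch, and p-values reflect differences among individual rats. In data simulated over 1278 genes, 85% of changes of log2 0.5 and 99% of log2 1 were recovered at 6 months. For the mean over times the shares were 96% and 100%. The noise was drawn independently for each gene, unlike the real values, which share their library. Changes smaller than log2 0.5, as all 6 genes had averaged over the times, were not simulated, so the shares do not cover them.

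The 7 genes and the lists were chosen with earlier results of these data known. One of the 7 and 1 listed marker are not reported here. By rule the genes of the set are named, up to 4 tested genes per list by smallest p averaged over the times, and the 8 genes of highest mean r. Itgad, Cd37, Il21r, Tnfaip3 and time changes of list genes were chosen after their values were seen. Alternatives were pseudocounts 0.1 and 1, no filter, median centring, quantile normalization, no trend, each time fitted by itself, an exact permutation test and leaving out each library. Plots used Python 3.11.15 and matplotlib 3.10.9.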

Additional observations from a re-analysis of the deposited data

Results flagged for a closer look

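The silica effect on Map4k1 differed between 18 months and 1 month (limma adjusted p = 0.0432). It was 0.46 at 1 month, with all silica lungs above all air lungs, and -0.20 at 18 months, where they overlapped. The air mean was 2.66 FPKM at 1 month and 4.37 at 18 months, and the silica mean 3.86 and 3.77. These air means were the lowest and the highest of the 12 group means of Map4k1.

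In the silica group of 18 months, replicate 2 had a Coro1a level of 53.5 FPKM, above the other 4 at 38.1 to 42.5. The gap was 0.712 of the group's range, barely past the critical value of 0.71. Of 72 gene and group combinations 1 had such a gap by Dixon's test, and chance alone marks about 1 in 20. The same library had the highest Lat level, 8.84 FPKM.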

How the results depend on the processing

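Averaged over the times, Tagap, Itgal, Coro1a and Zc3h12d stayed called in all 59 fits without 1 library and with either pseudocount, no filter and no trend. Median centring gave Zc3h12d 0.093, Map4k1 -0.031 and Lat -0.0047, and quantile normalization gave Coro1a 0.090, Map4k1 -0.025 and Lat -0.0080. The cause was not tested. Uncalled changes that turned sign were, centred and quantile normalized, -0.068 and -0.062 (Map4k1, 3 months), -0.015 and -0.027 (Map4k1, 9), -0.021 and -0.021 (Lat, 6) and -0.049 and -0.050 (Lat, 18), and, quantile normalized only, -0.0028 (Map4k1, 6) and -0.0013 (Coro1a in silica, 18 against 1 month).

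Without 1 library the uncalled changes that crossed 0 ranged, for Lat, -0.070 to 0.10 (1 month), -0.15 to 0.15 (3), -0.070 to 0.11 (6), -0.058 to 0.15 (12), -0.17 to 0.15 (18) and -0.16 to 0.16 (effect, 18 against 1). For Map4k1 they ranged -0.020 to 0.069 (3), -0.046 to 0.082 (9) and -0.087 to 0.019 (silica, 18 against 1), for Coro1a -0.15 to 0.021 (12) and for Zc3h12d -0.12 to 0.010 (18).

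The number of genes called was 113 at 1 month, 65 after median centring and 44 to 136 without 1 library (44 without air replicate 2). It was 302 at 12 months, 1 when that time was fitted by itself and 195 to 457 without 1 library (silica replicates 1 and 3), and 196 at 18 months, 130 by itself and 112 to 231 (lowest without silica replicate 4). For the effect at 18 against 1 month it was 2, 1 without a filter and 1 to 4, and for variation between times 17, 5 and 10 to 78, both highest without silica replicate 3 of 12 months. No paired analysis was possible because the labels give each rat a number of its own. Of 13 calls at single times 11 had an unadjusted exact permutation p under 0.05, all but Tagap at 12 and Coro1a at 9 months, as had 4 changes that limma did not call. Depth was only estimated in relative terms, so no counting error can be given, which bears on Zc3h12d near 1 FPKM.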

Other observations

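From 1 to 18 months in air lungs 4 of 12 tested genes of the other lymphocyte list were called higher and none lower, where 17.4% of all tested genes were higher. They were Spn (0.69 ± 0.12, limma adjusted p = 2.85e-05), Ifngr1 (0.49 ± 0.086, 3.66e-05), Tnfaip3, an NF-kB inhibitor (0.21 ± 0.070, 0.0216), and Cd37, a tetraspanin of lymphocytes (0.38 ± 0.13, 0.0299). Among the 8 not called were Il16 (0.035 ± 0.081, limma adjusted p = 0.822) and Il21r (0.10 ± 0.16, 0.713). From other lists Ncr1 (0.71 ± 0.17, limma adjusted p = 0.00200), Nkg7 (0.45 ± 0.14, 0.0195) and Itgad (0.73 ± 0.15, 2.68e-04) were higher at 18 months, named after their values were seen.

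Of 7 tested markers of lung epithelium, endothelium and blood, 2 were higher and 4 lower in silica averaged over the times (median -0.26). The smallest p belonged to Lpcat1 (0.67 ± 0.042), Napsa (0.64 ± 0.047), Ehd2 (-0.25 ± 0.027) and Rasip1 (-0.33 ± 0.046).

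Lat, Coro1a, Spn, Sept1 (Septin1) and Itgal follow each other on chromosome 1 in RefSeq (GRCr8), with 25, 39, 4 and 7 entries between neighbours. Map4k1 overlaps the entry LOC103689966, at 1.49 to 3.21 FPKM. With the strand setting unknown, reads of overlapping entries cannot be told apart.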
